A study of Mus musculus with 78 samples.

Results

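The 100 kb windows described here are the least methylated stretches of the autosomes in mouse E6.5 epiblast lacking Tet1 and Tet2. They were chosen by their methylation in the merged library table: positions with over 100 reads and 1 kb bins with over 20 listed CpGs were dropped, windows with at least 200 reads were kept, and the lowest 5% by methylated reads of all reads were taken. This gave 1195 of 23916 autosomal windows. The series covers early mouse embryos with 78 samples of methylation, expression and chromatin contact assays. Methylation was read with STEM-seq, a bisulfite method for few cells, in 3 libraries of this genotype that the authors merged. Their strain is labelled C57BL/6N x DBA. The knockout embryos came from matings of Tet1+/-/Tet2-/- parents, with alleles Tet1tm1.1Jae and Tet2tm1.1Iaai, so parents as well as embryos lacked Tet2, and genotypes were read from extraembryonic parts. Expression came from wild-type embryos of C57BL/6N and DBA/2N crosses, with 2 libraries of E6.5 epiblast and 2 of E6.5 visceral endoderm, the outer layer around the epiblast. Methylation of wild-type epiblast was not analysed here, so nothing below compares knockout with wild type. No expression of the knockout embryos was used either, and the absence of Tet1 and Tet2 rests on the labels.

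Methyl groups on the cytosine of CpG dinucleotides are placed by Dnmt3a and Dnmt3b and copied at replication by Dnmt1. Tet enzymes oxidize them, which opens a route back to plain cytosine. The epiblast, the layer that forms the embryo proper, gains methylation over most of its genome after implantation, while CpG islands, which are CpG-rich stretches often found at promoters, mostly stay free of it. Clusters of developmental regulators such as the Hox genes lie in long CpG-rich stretches bound by polycomb proteins in many cell types.

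The promoters below show what the windows hold. Hoxa5, Hoxb4 and Hoxd10, homeobox genes that set position along the body axis, stand for the Hox clusters, where the lowest windows lie. Ccdc38 and Arhgap45 have the most methylated promoters among those with at least 10 CpGs and at least 30 reads in the windows. Each sequence is RefSeq's for GRCm38.p6, 5′ to 3′ along the gene, from 250 bases before to 50 bases after the start, and capitals mark each CpG.
Hoxa5: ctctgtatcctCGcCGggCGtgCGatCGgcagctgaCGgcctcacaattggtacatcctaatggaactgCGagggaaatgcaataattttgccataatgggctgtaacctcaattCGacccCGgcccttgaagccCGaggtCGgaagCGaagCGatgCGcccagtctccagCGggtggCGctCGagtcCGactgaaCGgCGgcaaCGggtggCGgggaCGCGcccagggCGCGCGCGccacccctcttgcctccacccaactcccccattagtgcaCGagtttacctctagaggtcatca
Hoxb4: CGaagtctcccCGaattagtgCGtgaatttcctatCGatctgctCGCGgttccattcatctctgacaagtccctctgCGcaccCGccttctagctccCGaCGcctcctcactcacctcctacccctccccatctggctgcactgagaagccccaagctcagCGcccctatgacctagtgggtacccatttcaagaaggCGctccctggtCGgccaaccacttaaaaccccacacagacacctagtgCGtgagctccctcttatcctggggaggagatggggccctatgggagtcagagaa
Hoxd10: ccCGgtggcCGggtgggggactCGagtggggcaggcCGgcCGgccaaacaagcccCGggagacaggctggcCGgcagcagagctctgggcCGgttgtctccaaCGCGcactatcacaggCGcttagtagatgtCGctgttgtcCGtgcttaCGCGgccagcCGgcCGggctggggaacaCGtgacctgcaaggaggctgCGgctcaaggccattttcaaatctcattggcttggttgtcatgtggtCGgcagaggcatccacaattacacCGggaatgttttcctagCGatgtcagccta
Ccdc38: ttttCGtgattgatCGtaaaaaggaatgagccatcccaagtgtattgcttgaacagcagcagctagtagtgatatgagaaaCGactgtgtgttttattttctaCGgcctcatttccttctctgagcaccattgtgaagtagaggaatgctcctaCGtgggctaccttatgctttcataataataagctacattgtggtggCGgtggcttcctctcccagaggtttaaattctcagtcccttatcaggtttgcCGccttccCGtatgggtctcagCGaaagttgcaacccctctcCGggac
Arhgap45: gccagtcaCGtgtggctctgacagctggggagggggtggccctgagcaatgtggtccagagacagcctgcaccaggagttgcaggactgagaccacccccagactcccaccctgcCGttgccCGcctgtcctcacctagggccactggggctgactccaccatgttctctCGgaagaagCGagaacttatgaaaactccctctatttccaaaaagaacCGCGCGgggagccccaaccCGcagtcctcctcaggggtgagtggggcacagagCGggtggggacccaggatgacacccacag

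On mm9 these match chr6:52154537-52154836 (minus strand) for Hoxa5, chr11:96179331-96179630 (plus) for Hoxb4, chr2:74529698-74529997 (plus) for Hoxd10, chr10:93017376-93017675 (plus) for Ccdc38 and chr10:79479410-79479709 (plus) for Arhgap45. The Hoxa5 promoter, with 29 CpGs, had 4 methylated of 117 reads (3.42%, Wilson 95% interval 1.34 to 8.46). Hoxb4 had 0 of 55 reads methylated (upper limit 6.53%) over 14 CpGs, and Hoxd10 0 of 46 (upper limit 7.71%) over 22. The other end of the range was Ccdc38, with 36 of 38 reads methylated (94.7%, 82.7 to 98.5), and Arhgap45, with 28 of 31 (90.3%, 75.1 to 96.7), each over 10 CpGs. CpG-rich promoters of the windows thus ran from no methylated read to over 90%. All such intervals cover counting error only.

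The table listed 21342492 CpG positions with 48994715 reads, a mean of 2.30 per position, and 75.3% of positions had a read. Positions over 100 reads numbered 1730 and held 4.87% of all reads. Of 24017 autosomal windows, 101 had under 200 reads. Because the 3 libraries were merged, there is no spread between replicates, and no difference below was tested.

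In the chosen windows 77.1% of reads were methylated, against 86.2% in the 22721 others. These values follow from the choice and are a description. The chosen windows ran from 19.7% to the cut at 80.3%, with a median of 78.4%, a lower quartile of 76.1% and a 5th percentile of 69.4%. Most therefore lay close under the cut, and a short tail reached far below it. Just inside the cut were chr7:31100001-31200000, chr15:81300001-81400000 and chr19:26900001-27000000. Just outside were chr15:47900001-48000000, chr7:14700001-14800000 and chr9:121200001-121300000. All 6 printed as 80.3%, with intervals that overlapped. Chromosome X was not part of the choice, and 594 of its 1571 windows (37.8%) lay at or below the autosomal cut. Its median was 81.2%, at 1.50 reads per listed CpG against 2.38 in the other autosomal windows.

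**Figure D1:**
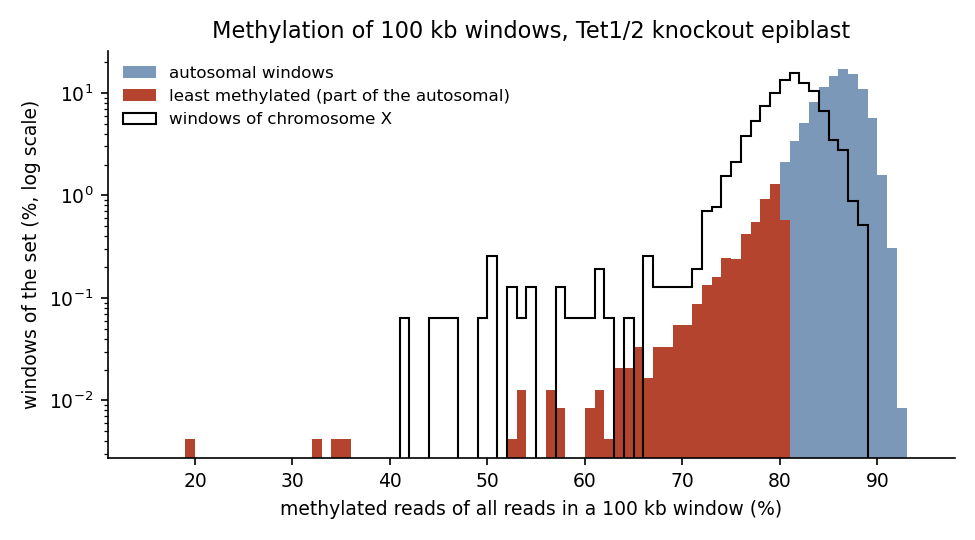
Methylated reads of all reads per 100 kb window (x, in 1% steps) against the percent of windows of each set (y, log scale), for all autosomal windows, the least methylated among them and chromosome X. The least methylated windows reach from 80.3% down to 19.7%, with 4 windows under 40%, while the windows of chromosome X centre on 81.2%.

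The choice was read again on separate reads by using 1 DNA strand at a time. Windows chosen on Crick reads alone had 76.4% methylated on that strand and 78.8% on the Watson reads, against 86.1% in the remaining windows. Of these 1195 windows, 1131 lay below the level of the rest on the Watson strand. Windows chosen on Watson reads had 76.5% there and 78.7% on Crick reads, with 1142 below the rest. The median of the remaining windows was 86.2% on the strand read, close to their pooled 86.1%, so many of them lay below it as well. A lower level was also present in the strand not used to choose, less deep by about the same amount each way. Both strands come from the same merged libraries and CpGs, so this is a description and no replicate. The choices on 1 strand shared 876 (Crick) and 892 (Watson) windows with the full choice.

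Depth and coverage moved with the choice. The chosen windows held a median of 1538 reads against 1656 in the others, and 77.1% of their listed CpGs had a read against 79.8%. A minority was thinly covered: the 5th percentile of coverage was 36.1% against 70.7%. Of 108 windows with up to 40% of CpGs covered, 77 (71.3%, 62.1 to 79.0) were chosen, against 348 of 11275 (3.09%) where more than 80% were covered. In windows of 200 to 499 reads the chosen share was 68.7% (101 of 147). The part of thin coverage in the choice was not tested. Among windows with over 50% of CpGs covered, an alternative added after the data were seen, the lowest 5% were 1186 windows at 77.4%, of which 1083 were also in the main choice.

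The 4 lowest windows with at least 1000 reads each lay in a Hox cluster. The lowest was chr6:52100001-52200000, with 241 of 1226 reads methylated (19.7%, 17.5 to 22.0). It held the starts of Hoxa2 to Hoxa11, and 2418 further CpGs in CpG-dense bins (1 kb bins with over 20 listed CpGs, which the choice left out) were methylated at 5.57%. The Hoxb window chr11:96100001-96200000 followed at 32.7% (398 of 1218), with Hoxb4 and Hoxb8. The Hoxd window chr2:74500001-74600000 had 34.4% (526 of 1529), with Hoxd3 to Hoxd13. The Hoxc window chr15:102800001-102900000 had 35.4% (488 of 1377), with Hoxc4 placed in it. CpG-dense bins in these last 3 were at 10.5%, 7.98% and 8.14%. The Hoxa window stood apart: its interval did not reach those of the other 3, which overlapped each other. The window after it, with Hoxa13 and Evx1, was at 64.8% and the window before it at 84.0%. Around the Hoxb window the neighbours were at 70.6% and 69.6%, around the Hoxd window at 76.9% and 84.3%, and around the Hoxc window at 63.0% and 78.4%.

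The next 6 windows lay between 52.3% and 57.2%. The lowest of them, chr2:22400001-22500000, was at 52.3% (996 of 1906), with the start of Gad2, a glutamate decarboxylase of inhibitory neurons. It had 34 positions over the read cap. The window chr13:23500001-23600000 was at 53.0% (1259 of 2374), with Abt1 and Btn2a2, and the window after it, at 64.9%, holds histone genes such as H4c4. The window chr13:78300001-78400000 was at 53.3% (750 of 1407), with Nr2f1, an orphan nuclear receptor of neural development. The window chr4:88900001-89000000 was at 53.4% (619 of 1159), with Cdkn2a and Cdkn2b, inhibitors of cyclin-dependent kinases. These 4 were close to each other in level, and their CpG-dense bins were at 4.29%, 9.73%, 13.4% and 3.91%. The window chr4:79600001-79700000 (56.3%, 872 of 1548) differed from them in having no CpG-dense bin and no placed promoter, and it had 30 positions over the read cap. The window chr12:50400001-50500000 (57.2%, 949 of 1659) had no placed promoter, and its 397 CpGs in CpG-dense bins were at 2.27%. The windows on either side of the Cdkn2a window were above the cut, at 88.7% before and 84.2% after.

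CpG-dense bins were richer and less methylated in the chosen windows. Their reads were not used by the rule, though they lie among the bins that were. A chosen window held a median of 200 CpGs in such bins, against 88 in the others, and these were methylated at 36.1% against 56.8%. At like numbers of such CpGs the gap was smaller up to 400. It was 67.9% against 80.5% with 1 to 50, 67.4% against 72.7% with 51 to 100 and 44.2% against 52.9% with 201 to 400. With 401 to 800 it was 31.4% against 52.5%, and with over 800 it was 30.9% against 51.1%. The share of windows chosen was 2.51% (110 of 4388) where there was no CpG-dense bin, 5.69% with 201 to 400 such CpGs, 12.9% with 401 to 800 and 32.1% (120 of 374) with over 800. It rose in the same order with promoters, from 3.68% of windows with none to 18.7% (49 of 262) with at least 8. The windows were not alike in this respect. Of the 1035 with at least 20 reads in CpG-dense bins, 197 had these bins under 20% methylated and 212 had them over 80%. The middle 50% of these 1035 windows ran from 24.7% to 75.1%. In 17707 other windows it ran from 45.2% to 87.4%, so a wide spread was not particular to the chosen windows. Had CpG-dense bins been kept for the choice, the lowest windows would have been at 62.1%, and 476 of the 1195 (39.8%) would have stayed among them. Where at most 40% of CpGs were covered, CpG-dense bins of chosen windows were at 68.0%, close to the 67.3% of other windows. Where more than 80% were covered they were at 27.6% against 51.6%.

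**Figure D2:**
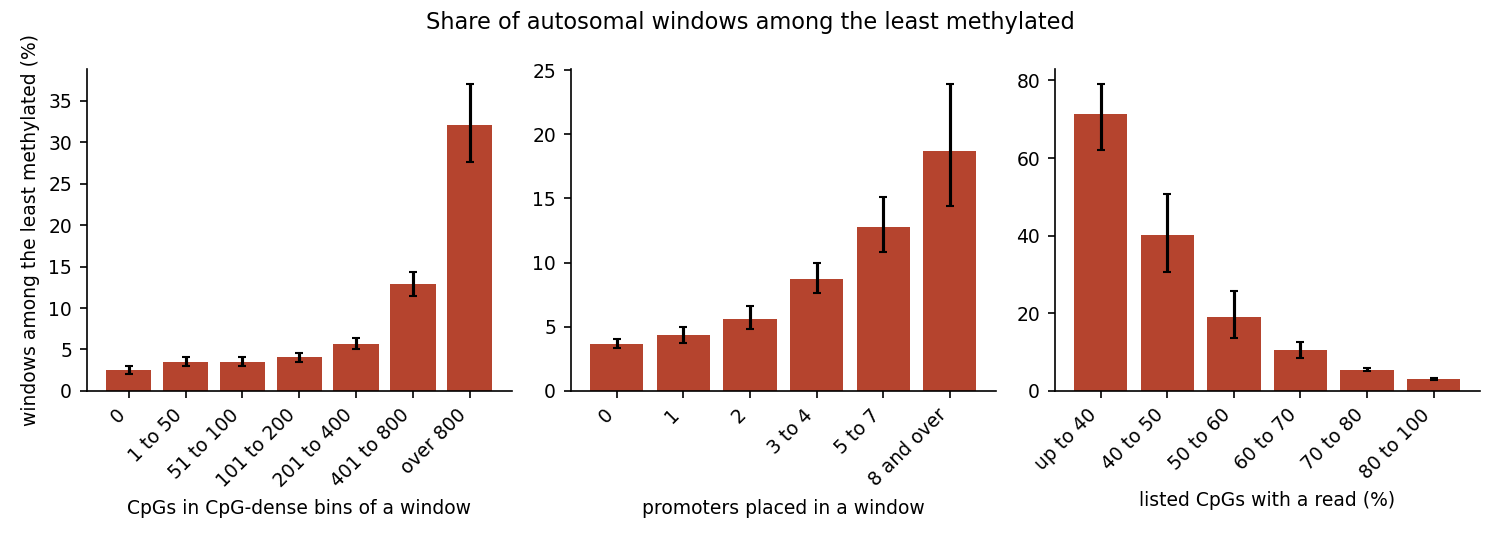
Percent of autosomal 100 kb windows that are among the least methylated (y, separate scales from 0) by CpGs in CpG-dense bins, by placed promoters and by the percent of listed CpGs with a read (x, left to right), with Wilson 95% intervals as error bars. The share reaches 32.1% in windows with over 800 CpGs in CpG-dense bins and 71.3% in windows with at most 40% of CpGs covered.

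Single CpG-dense bins with at least 100 reads spanned the whole scale. The lowest were chr13:40826001-40827000 with 0 of 219 reads methylated (upper limit 1.72%), chr2:121115001-121116000 with 0 of 211, which holds the start of Map1a, a microtubule-associated protein gene, and chr2:26092001-26093000 with 0 of 209, which holds that of Qsox2, a sulfhydryl oxidase. The highest was chr6:127042001-127043000 with 101 of 101 reads methylated (lower limit 96.3%). Next were chr15:98488001-98489000 with 130 of 134 and chr13:43639001-43640000 with 97 of 100. None of the 3 high bins held a placed promoter, and neither did the low bin on chromosome 13. Among CpG-dense bins with at least 10 reads, 38.9% in the chosen windows were at most 20% methylated and 29.7% at least 80%. In the other windows these shares were 18.4% and 54.8%, so bins at both ends were found there as well.

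Low methylation in the windows was not limited to the edges of CpG-dense bins. In the bin next to one (1 kb away) the chosen windows were at 67.0% and the others at 82.7%, a wider gap than at each greater distance measured. At 2 kb the values were 77.1% and 86.1%, and at 6 to 10 kb 80.1% and 86.4%. Over 50 kb away the chosen windows were at 77.8% (77.5 to 78.0) and the others at 86.6%. Sorted by CpGs per bin, the chosen windows fell from 79.4% in bins of 1 to 4 listed CpGs to 69.1% in bins of 17 to 20, while the others stayed between 84.9% and 86.6%. These distances use the reads of the rule and describe where in the windows the low reads lie.

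**Figure D3:**
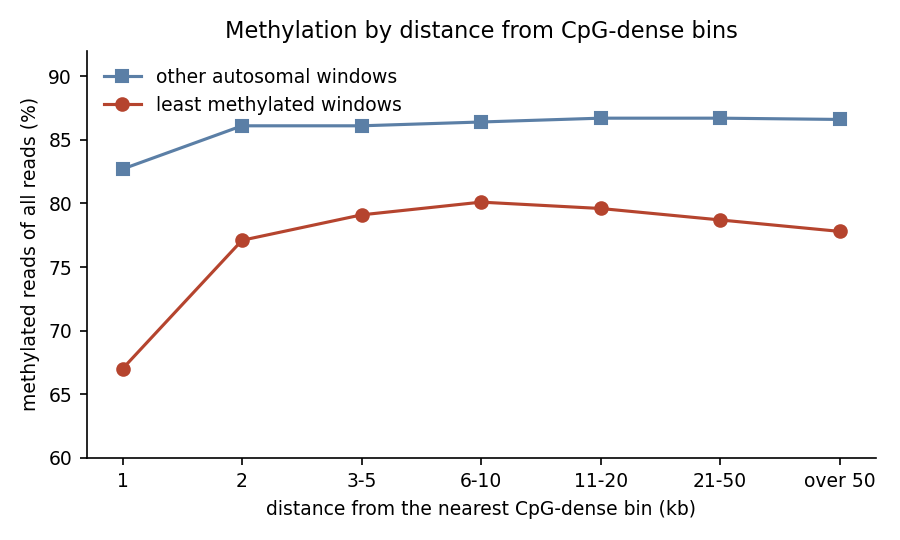
Methylated reads of all reads (y, axis from 60%) by distance from the nearest CpG-dense bin (x, kb), pooled over the least methylated and over the other autosomal windows. The chosen windows lie lower at each distance, at 67.0% against 82.7% next to a CpG-dense bin and 77.8% against 86.6% over 50 kb away.

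At single CpGs with at least 5 reads, 8.12% in the chosen windows were at most 20% methylated, against 2.09% in the others. Most CpGs were still highly methylated: 62.8% were at 80% or above, against 75.1%. Among 1 kb bins with at least 10 reads, 2.28% were at most 20% methylated against 0.215%, and 38.1% lay between 20% and 80% against 22.6%. These counts use the reads that chose the windows, so more low and intermediate CpGs and bins follow from the choice.

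Many chosen windows adjoined another. They formed 864 runs, of which 711 were single windows. The other 484 windows (40.5%, 37.8 to 43.3) adjoined another chosen window, and 19 runs of at least 5 windows held 158. With a minimum of 1000 reads the share in runs was 33.1%. How often as many scattered windows would adjoin was not tested. Outside a single window the level changed quickly: the median was 78.9% in the window itself, 84.4% at 100 kb and 85.2% at 200 kb. For runs the medians were 77.6%, 83.2% and 84.0%. These neighbours are windows not chosen themselves, so their level is above the cut by construction. Beyond 200 kb the medians changed by less than 1 percentage point for either kind of place.

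**Figure D4:**
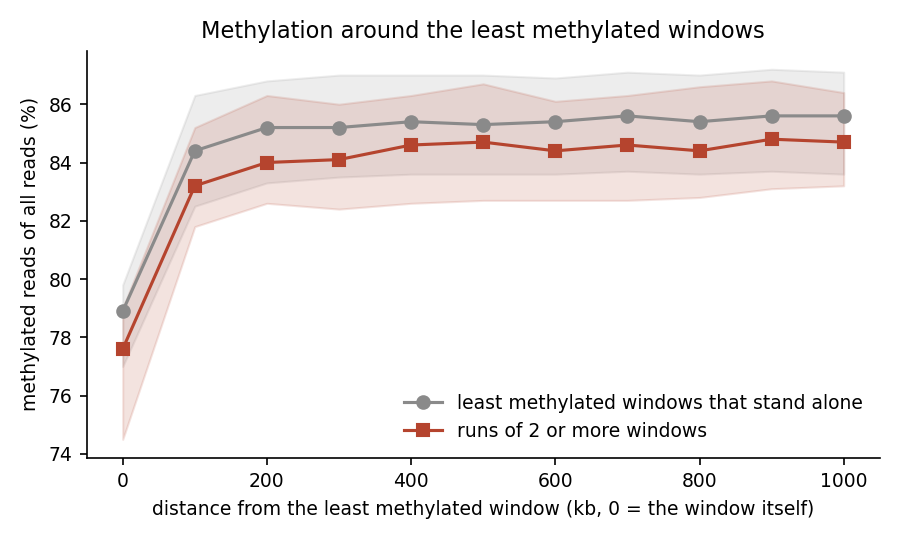
Median methylated reads of all reads per window (y, axis from 74%) against the distance from a chosen window standing alone or from the edge of a run (x, kb), with the middle 50% of windows shaded. Distance 0 is the chosen windows themselves, other distances count only windows not chosen. The medians go from 78.9% to 84.4% and from 77.6% to 83.2% within 100 kb.

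The longest run was chr12:115000001-117300000, 23 windows at 75.8% (75.2 to 76.4), ranging from 69.8% to 79.8%. It lies between Tmem121 and Vipr2 in RefSeq's gene order, an interval that lists 184 variable segments of the immunoglobulin heavy chain and only 3 protein-coding genes. The sole promoter placed in it was that of Zfp386, a zinc finger gene. Its CpG-dense bins were at 74.5%, so the run was not low at CpG-rich places. The second run, chr3:125900001-127800000, had 19 windows at 75.5% (75.0 to 75.9). It held 20 placed promoters, among them those of Camk2d, a calcium-dependent kinase, Ank2, an ankyrin, and Neurog2, a neurogenic transcription factor, and its CpG-dense bins were at 39.3%. The third, chr19:60100001-61400000, had 13 windows at 76.7% and ran to the end of the chromosome. Its CpG-dense bins were at 20.1%, and its genes included Eif3a, a translation initiation factor subunit, Prdx3, a mitochondrial peroxiredoxin, and Nanos1, an RNA-binding protein.

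The next 3 runs held few placed promoters. The run chr3:111800001-112800000, 10 windows at 73.5% (72.6 to 74.4), lies between Prmt6 and Amy2a1. RefSeq lists 5 other genes of pancreatic amylase in that interval, but no promoter was placed in the run itself. This run was the lowest of the 6, and its 194 CpGs in CpG-dense bins were at 76.8%. The run chr14:109800001-110700000, 9 windows at 76.2%, lies between Slitrk1 and Slitrk6, neuronal membrane proteins, with no protein-coding gene listed between them, and its CpG-dense bins were at 86.6%. The run chr10:91400001-92300000, 9 windows at 77.6%, had CpG-dense bins at 66.5%. The promoters placed in it were those of Gm20757 and Gm31822. RefSeq lists Nedd1 and Cfap54 between the placed genes on either side, but neither was placed in the run. Coverage in the 6 runs was 69.9% to 77.4% of listed CpGs. In the other autosomal windows the median was 79.8% and the 5th percentile 70.7%. The run next to Amy2a1 (69.9%) and that between Slitrk1 and Slitrk6 (70.4%) lay below that percentile. The 6 runs split by their CpG-dense bins, low in the distal run of chromosome 19 and in that of Ank2, and 66.5% to 86.6% in the other 4.

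Chromosomes took unequal shares. Chromosome 7 had 150 of 1409 windows chosen (10.6%, 9.14 to 12.4), of which 42 had at most 50% of their CpGs covered. Chromosome 3 had 119 of 1566 (7.60%, 6.39 to 9.02), with 5 such windows. The lowest shares were those of chromosome 16, with 12 of 953 (1.26%, 0.722 to 2.19), and chromosome 8, with 31 of 1253 (2.47%, 1.75 to 3.49). Chromosome ends stood high: of the last 10 windows of the autosomes 45 of 190 were chosen (23.7%, 18.2 to 30.2), and of the first 10 windows 31 of 184 (16.8%, 12.1 to 22.9). These intervals treat windows as independent, though adjoining ones are not. The last 10 windows of chromosome 19 belonged to its run of 13, and chromosome 3 held runs of 19 and 10 windows.

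Genes were placed in the windows by matching the CpG spacing of RefSeq promoters to the listed positions, which placed 25673 of 32619 promoters (78.7%). Promoters with at least 4 CpGs were placed at 98.0% and poorer ones at 35.8%, so counts of genes cover CpG-poor genes less well. A chosen window held 1.97 placed promoters on average, against 0.987 in the others, and 504 chosen windows (42.2%) held none, against 58.1%. Of 20400 genes placed in an autosomal window, 1946 (9.54%) had a promoter in a chosen one. Promoters with at least 10 CpGs and at least 10 reads differed little: 91.1% were under 20% methylated against 87.9%. Promoters with fewer CpGs differed more, with 38.6% of 428 under 20% against 11.5% of 4326. Reads at promoters outside CpG-dense bins were among those that chose the windows, so this difference can follow from the choice and is a description only.

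Some gene families lay almost wholly in the windows. Families were formed by symbol and ordered by the share inside among those with at least 10 placed genes, an order chosen after values were seen. Of 22 placed Hox genes 21 were inside, in 6 windows. Of 18 Hox promoters with at least 10 reads 16 were under 20% methylated, and the exceptions were Hoxd4 at 90.0% (9 of 10 reads) and Hoxd8 at 36.4% (4 of 11). The clustered histone genes, which supply histones at DNA replication, had 56 of 62 inside, and 40 of 41 of their promoters with at least 10 reads were under 20%. Of 22 genes named H2-, most of them of the major histocompatibility complex, 17 were inside, and 7 of 9 promoters with at least 10 reads were under 20%, with a median of 8.16% and a range from 0% to 100.0%. Vmn1r genes, vomeronasal receptors, had 10 of 19 inside and were methylated at both promoters with at least 10 reads, 86.7% and 100.0%. Smaller shares were those of genes named Tcf (5 of 10), Fgf growth factors (7 of 16), Nkx homeobox genes (5 of 12), genes named Sp and Tbx (4 of 10 each) and Pou factors (4 of 11). Neighbouring genes of a family share a window and are not independent. Over all placed genes, 9.54% had a promoter inside. Of all promoters with at least 10 reads, 76.8% in the windows and 65.4% elsewhere were under 20% methylated. With at least 10 CpGs these shares were 91.1% and 87.9%, so low promoters are not particular to these families.

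Regulators of the epiblast were found there as well, in lists drawn up after the genes had been seen. Of 10 genes that write, keep or remove DNA methylation, 3 were inside, the methyltransferases Dnmt3a and Dnmt3b and the glycosylase Tdg. Of 8 placed pluripotency factors 3 were inside (Nanog, Pou5f1 and Sox2), of 17 polycomb genes 6 (Cbx8, Ezh1, Jarid2, Mtf2, Phc1 and Ring1), and of 16 gastrulation and patterning factors 7 (Cdx2, Evx1, Fgf5, Foxa2, Gbx2, Lhx1 and T). The share over all placed genes was 9.54%. The Pou5f1 window was at 75.5%, that of Sox2 at 76.4%, that of Nanog at 74.7% and that of Dnmt3b at 75.0%. The Tdg window was lower, at 65.7%.

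Genes of the windows were expressed about as widely as others in wild-type E6.5 epiblast. Of 1385 with values, 51.3% and 52.3% reached 1 FPKM in the 2 libraries, against 53.0% and 52.7% of 12694 other genes. Their medians were 1.20 and 1.24 FPKM against 1.41 and 1.37. In E6.5 visceral endoderm the medians were 0.905 and 0.903 FPKM against 1.41 and 1.55, a wider gap. Hox genes were near silent in epiblast: none of 21 reached 1 FPKM in either library, and the highest mean, that of Hoxd13, came from 0.166 and 0.0926 FPKM. The clustered histone genes inside the windows, whether or not their promoters had 10 reads, had a median of 7.24 FPKM, with 45 and 49 of 51 at 1 FPKM or more. The methylation and the expression come from different embryos and genotypes.

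Several epiblast regulators, picked as examples, combined high expression with no methylated read at the promoter. Low promoters were common: of those with at least 10 reads, 76.8% in the windows and 65.4% elsewhere were under 20% methylated. Pou5f1 had 337 and 441 FPKM in the epiblast libraries and 20.9 and 2.10 in visceral endoderm, with 0 of 12 promoter reads methylated. Dnmt3b had 181 and 168 FPKM in epiblast and 39.3 and 33.9 in visceral endoderm, with 0 of 12 reads methylated. With 12 reads each, the promoter levels of Pou5f1 and Dnmt3b are only loosely known. Dnmt3a had 65.1 and 71.8 FPKM in epiblast and 7.75 and 6.21 in visceral endoderm, with 0 of 31. For these 3 genes the epiblast libraries lay above those of visceral endoderm without overlap. Fgf5, a growth factor of the primed epiblast, had 118 and 96.2 FPKM in epiblast, with 0 of 48 reads methylated, and 182 and 197 in the visceral endoderm libraries. Lhx1 and Foxa2, transcription factors known from visceral endoderm, showed the reverse order to Pou5f1: Lhx1 had 0.518 and 0.581 FPKM in epiblast against 51.8 and 66.3, and Foxa2 1.23 and 1.50 against 51.4 and 50.2. The Lhx1 promoter was bare in the knockout epiblast, with 1 of 95 reads methylated.

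Of the genes of the windows, Ptma, prothymosin alpha, had the highest mean in epiblast, with 2607 and 2477 FPKM, followed by Ubb, ubiquitin, with 1672 and 1391. Mif, a cytokine, had 909 and 1890.4 FPKM, Rps26, a ribosomal protein, 688 and 1636, and Hmga1, a chromatin protein, 453 and 837, so the 2 libraries lay far apart for these 3 genes. The 7 genes after Mif were Rps26, Rack1, Tuba1b, Ywhae, Tpi1, Hmga1 and Skp1, with means from 634 to 1162 FPKM. All 10 had promoters under 8% methylated, from 0 of 85 reads at Hmga1 to 6 of 78 at Tuba1b, with only 14 reads at Tpi1. These promoters held 14 to 39 CpGs. Of all promoters with at least 10 CpGs and at least 10 reads, 91.1% in the windows and 87.9% elsewhere were under 20% methylated.

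**Figure D5:**
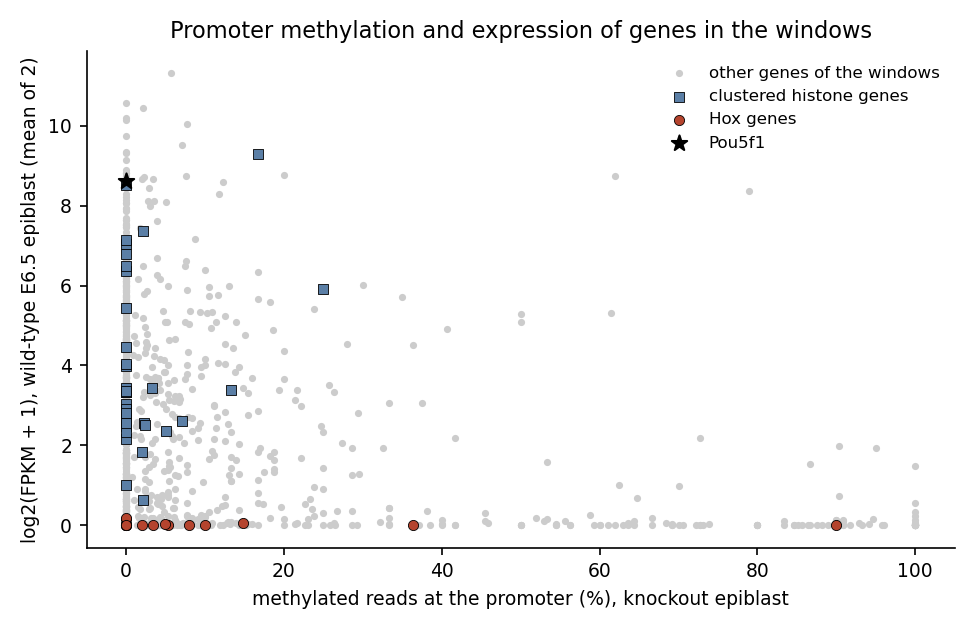
Promoter methylation in knockout epiblast (x, percent of reads, promoters with at least 10 reads) against log2(FPKM + 1) in wild-type E6.5 epiblast (y, mean of 2 libraries) for genes of the least methylated windows, 1 point per gene. Most points lie under 20% methylated, where Hox genes sit at the bottom of the scale and clustered histone genes and Pou5f1 (mean 389 FPKM) above it.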

How the data were processed

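Methylation was deposited by the authors as whole-number counts of methylated and unmethylated reads per CpG and strand, merged from 3 libraries. Per the submitters' processing notes, reads were called with CASAVA 1.8 and mapped to mm9 with BS-Seeker2, whose version is not given in the sources used here. Expression was deposited as FPKM, made with TopHat2 2.0.11 and Cufflinks 2.0.2 per the same notes. FPKM give no depth. Values of 1e-06 or less were set to 0, and 27 symbols turned into dates and 4 repeated lines were left out. Columns of other samples numbered 0.

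Read counts were summed over windows with numpy 2.4.6 and pandas 2.3.3 (Python 3.11.15). Figures were drawn with matplotlib 3.10.9, and scipy was version 1.17.1. The choice of windows and the placing of promoters, but no later step, were tried on simulated data. Simulated low windows lay further below the rest than most chosen windows do. Simulated promoters were drawn from the mm9 positions, so the change of genome build was not tried. Intervals are Wilson intervals at 95%. Those over windows treat adjoining windows as independent, which they are not. Promoters of RefSeq (GRCm38.p6) were placed on mm9 where the spacing of their CpGs matched the listed positions once, on the chromosome with at least 4 CpGs (22058, of which 4 were dropped as out of gene order), or between placed neighbours (3619). Gene order comes from RefSeq. Promoters with few reads or repeated sequence can be missed or misplaced.

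Windows named are the 10 lowest with at least 1000 reads, the 6 longest runs, 3 on each side of the cut, the 2 chromosomes of highest and the 2 of lowest share, 6 CpG-dense bins with at least 100 reads, the 10 genes of highest mean FPKM and up to 10 families with at least 3 genes. Other genes are named from lists or families, or as examples chosen after their values were seen. No position on chromosome 18 is named. The windows and lists were chosen with earlier results of these data known.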

Additional observations from a re-analysis of the deposited data

How the results depend on the processing

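The same values were computed under 15 other settings, of which a minimum of 5000 reads gave no value because 4 windows were left. Coverage over 50% was added after the data were seen, and the cause of each shift was not tested. Pooled methylation (77.1%) was 77.3% with a cap of 50 reads, 73.5% with no read cap, 78.0% with a cap of 10 listed CpGs, 62.1% with no CpG cap, 77.6% with a minimum of 1000 reads, 75.4% with 50 kb windows, 78.2% with 200 kb windows, 73.8% with the lowest 2%, 79.2% with the lowest 10%, 77.7% with each position counted equally, 78.8% with a choice on Crick reads, 78.7% with a choice on Watson reads and 77.4% with over 50% of CpGs covered. The number of windows (1195) was 2377 with 50 kb windows, 600 with 200 kb windows, 478 with the lowest 2% and 2391 with the lowest 10%. The share in runs (40.5%) was 47.3% with a cap of 10 listed CpGs, 33.1% with a minimum of 1000 reads, 35.8% with 50 kb windows, 48.3% with 200 kb windows, 51.9% with the lowest 10%, 45.2% with each position counted equally and 36.4% with a choice on Crick reads. Methylation of CpG-dense bins (36.1%) was 35.2% with no read cap, 43.4% with a cap of 10 listed CpGs, 29.1% with no CpG cap, 35.9% with windows shifted by 50 kb, 32.9% with 50 kb windows, 39.3% with 200 kb windows, 30.7% with the lowest 2%, 40.3% with the lowest 10%, 35.2% with each position counted equally, 36.5% with a choice on Crick reads, 37.6% with a choice on Watson reads and 36.2% with over 50% of CpGs covered. Median listed CpGs per window (640.0) were 377 with a cap of 10 listed CpGs, 1386 with no CpG cap, 336 with 50 kb windows and 1193 with 200 kb windows. Numbers of windows and of listed CpGs are given only where they changed over 1.5-fold. Smaller changes are left out, such as 1082 windows and 746 CpGs with a minimum of 1000 reads. Reads per listed CpG (2.24) were 2.20 with a cap of 50 reads, 4.06 with no read cap, 2.29 with a cap of 10 listed CpGs, 2.03 with no CpG cap, 2.40 with a minimum of 1000 reads, 2.34 with 50 kb windows, 2.14 with 200 kb windows, 2.29 with the lowest 2%, 2.25 with the lowest 10%, 2.24 with each position counted equally, 2.25 with a choice on Crick reads and 2.36 with over 50% of CpGs covered. Which windows were chosen changed with the CpG cap: 476 of 1195 were shared with the choice without it and 722 with a cap of 10, while 1167 were shared with a cap of 50 reads and 1163 with no read cap. No paired analysis was possible because the 3 libraries were merged. The mean of 2.30 reads limits what any single CpG can show.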
